A study of Drosophila melanogaster with 70 samples.

Results

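The Antennapedia complex is a cluster of homeobox genes on chromosome arm 3R of Drosophila melanogaster. Its members here are the 9 genes lab, pb, zen2, zen, bcd, Dfd, Scr, ftz and Antp, taken by name from a gene table of the dm6 assembly. All 9 were found, of 13831 protein-coding genes on the 5 arms that hold boundaries. From the left end of lab to the right end of Antp they span 337.8 kb, at 3R 6661427 to 6999228. Left and right refer to increasing coordinates, since the gene table holds no strand.

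In situ Hi-C, which ligates neighbouring fragments of chromatin and reads the joined pairs by sequencing, was made from whole embryos staged by hand. Contacts are averaged over all nuclei of 50 to 100 embryos, so a boundary present in some nuclei and a faint boundary present in all cannot be told apart. The stage 15 group (14 to 16 h after egg laying) had 8 libraries, 2 for each combination of sex with mof RNAi or control RNAi, in a Sxl-GFP background and sorted by GFP into males and females. The stage 5 mof RNAi group (nuclear cycle 14, the blastoderm) had 2 libraries and the stage 5 control RNAi group had 3, from unsexed embryos. In every group the RNAi was driven in the mother by mat-a-tubGal4, and the mothers were crossed to their siblings. The strain labels of the mof RNAi libraries name control RNAi mothers but give the stock that the series' other mof RNAi samples name, so the groups follow the titles. The Gal4 stock of the stage 15 libraries was not that of the stage 5 libraries.

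MOF acetylates lysine 16 of histone H4. Each group is represented by 1 list of domain boundaries, taken to pool its libraries, with 2785 boundaries at stage 15, 2499 at stage 5 after mof RNAi and 2591 at stage 5 in control. The stage 15 list therefore may hold both sexes and both RNAi conditions. Where it differs from the stage 5 lists, stage, RNAi, Sxl-GFP background, sorting by sex, Gal4 stock and number of libraries cannot be told apart. Depth is unknown, and with 1 list per group there is no replicate spread and no test. Each difference described is between 2 lists, not between replicated groups.

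Homeobox genes encode transcription factors that bind DNA through a homeodomain. The homeotic, or Hox, genes of the complex lie along the chromosome in the order of the body regions they specify: lab (head and midgut), pb (mouthparts), Dfd (mandible and maxilla), Scr (labium and prothorax) and Antp (thorax). Between them sit genes that no longer act as homeotic genes in flies: zen, which patterns the dorsal ectoderm and amnioserosa, its neighbouring paralog zen2, the maternal anterior determinant bcd, and the pair-rule gene ftz. Many of these genes are controlled by enhancers far from their promoters, and a topological domain is a stretch within which contacts, including those of enhancers and promoters, are more frequent than across its ends.

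The complex was divided into the same main blocks in all 3 lists. The stretch held 7 boundaries at stage 15, 8 at stage 5 after mof RNAi and 8 at stage 5 in control. Per 100 kb this was 2.07 at stage 15, 2.37 after mof RNAi and 2.37 in control, beside 2.12, 1.92 and 1.98 over the 5 arms. A boundary was taken as called again where a midpoint of the other list lay within 2.5 kb, which is 1 bin of the maps. By that rule 6 positions of the complex carried a boundary in every list. Over the genome this held for 50.2% of stage 15 boundaries, 55.9% of mof RNAi boundaries and 54.2% of control boundaries. The 9 genes fell into 6 domains in each list, counted by the midpoint of each gene.

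**Figure D1:**
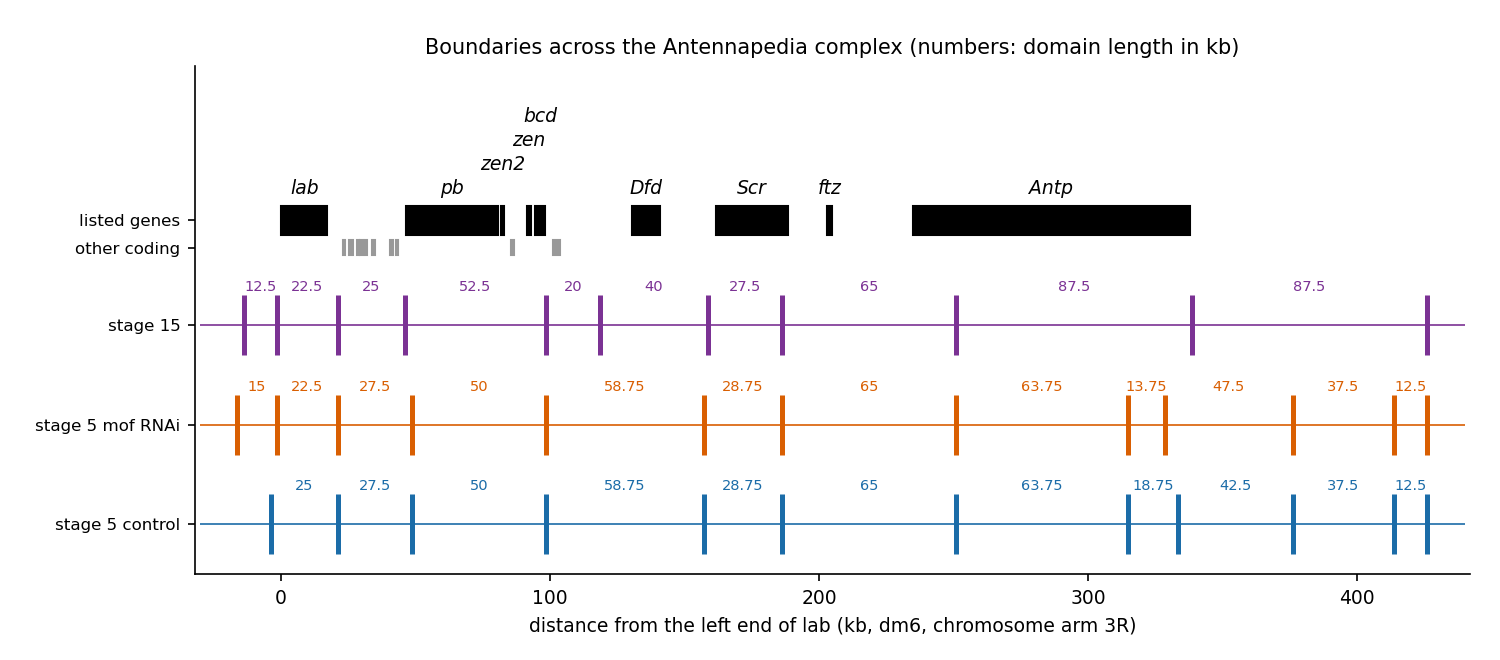
Map of the complex with distance from the left end of lab in kb on the x axis. Black boxes are the 9 listed genes, grey boxes other protein-coding genes (CG46458, which overlaps Antp, is not drawn), vertical bars are boundary midpoints in the stage 15, stage 5 mof RNAi and stage 5 control lists, and numbers are domain lengths in kb. The blocks from lab to ftz recur in all 3 lists, while the stage 15 list has 1 more boundary left of Dfd and has none inside the right part of Antp, where each stage 5 list has 2, but has one 0.772 kb past its end.

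The homeotic gene lab, at 3R 6661427 to 6678590, lay alone in a domain of 22.5 kb at stage 15 and of 22.5 kb after mof RNAi. In control the domain was 25 kb and also held twr and agt, of which agt encodes a DNA repair alkyltransferase. The difference was 1 bin at the left edge. That boundary stood at 6658751 to 6661250 at stage 15 and after mof RNAi, and at 6656251 to 6658750 in control. The left end of lab was 1.43 kb from it at stage 15, 1.43 kb after mof RNAi and 3.93 kb in control, so lab counted as a gene at a boundary, with an end within 2.5 kb, at stage 15 and after mof RNAi but not in control. The right end of lab was 3.91 kb from a boundary at 6681251 to 6683750 that had the same place in all 3 lists.

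To the right of lab the homeotic series is interrupted by 8 genes for cuticle proteins, Edg84A and the 7 genes from Ccp84Ag to Ccp84Aa. In each list they formed a domain of their own between lab and pb. It measured 25 kb at stage 15, 27.5 kb after mof RNAi and 27.5 kb in control. Its only other annotated gene was 1 lncRNA, and it held none of the 9 homeobox genes. Edg84A, next to its left edge, was 1.945 kb from that boundary in every list.

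The mouthpart gene pb, at 6707800 to 6742063, shared a domain with zen2, zen and bcd in every list. That domain was 52.5 kb long at stage 15, 50 kb after mof RNAi and 50 kb in control. Its left edge lay at the left end of pb. At stage 15 the boundary (6706251 to 6708750) was 0.3 kb outside the gene, and in both stage 5 lists (6708751 to 6711250) it was 2.2 kb inside it. A shift of 1 bin therefore decided whether pb was counted as holding a boundary, and pb was a gene at a boundary in all 3 lists. The right end of pb was 17.9 kb from the nearest boundary in each list.

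Next in that domain came zen2, at 6743135 to 6744136, and zen, at 6752864 to 6754194, 8.73 kb apart with the coding gene CG34297 between them. No list placed a boundary between these paralogs. The ends of zen2 were 16.9 and 15.9 kb from the nearest boundary and those of zen 7.14 and 5.81 kb, with the same values in all 3 lists.

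The gene bcd, whose mRNA is laid down by the mother, occupies 6755842 to 6759466. Its right end was 0.534 kb from a boundary at 6758751 to 6761250 in every list, and its left end was 4.16 kb from the same boundary. It was the member with the smallest distance that was common to all 3 lists. The boundary closed the domain of pb, zen2, zen and bcd on the right. On its other side lay Ama, a gene for an adhesion protein of the immunoglobulin family, which was 2.59 kb from it.

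Dfd, the homeotic gene of the mandibular and maxillary segments, lay at 6791836 to 6802428 and had no boundary near either end in any list. Its domain was 40 kb at stage 15, 58.8 kb after mof RNAi and 58.8 kb in control. Both stage 5 domains reached from the boundary beside bcd to the boundary left of Scr and also held Ama and the microRNA genes mir-993 and mir-10. The stage 15 list had an added boundary at 6778751 to 6781250, 20 kb from the nearest boundary of either stage 5 list. It left Dfd with mir-10 on one side and Ama with mir-993 in a separate domain of 20 kb on the other. The nearest annotated end belonged to lncRNA:CR42721, at 0.272 kb. The left end of Dfd was 11.8 kb from a boundary at stage 15, 26.9 kb after mof RNAi and 26.9 kb in control, while its right end stood at 17.6, 16.3 and 16.3 kb in the same order. At stage 5 both ends of Dfd were nearest to the boundary on its right, so the distance of the left end crosses the gene. The 2 stage 5 lists were identical here and stage 15 was nearer at the left end.

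Scr, which specifies the labial and prothoracic segments, occupies 6823120 to 6849981. Its domain was the shortest of a Hox gene after that of lab, with 27.5 kb at stage 15, 28.8 kb after mof RNAi and 28.8 kb in control. A boundary at 6846251 to 6848750 lay inside Scr, 2.48 kb from its right end, in all 3 lists. It left 24.4 kb of the gene in one domain and 2.48 kb in the next, which is that of ftz. The left edge of the domain lay outside the gene, between Dfd and Scr, 3.12 kb from the left end of Scr at stage 15, 4.37 kb after mof RNAi and 4.37 kb in control. At stage 15 this boundary was at 6818751 to 6821250. In both stage 5 lists it was 3.75 kb wide, at 6816876 to 6820625. Of all stage 5 boundaries 5.6% were wider than 2.5 kb after mof RNAi and 5.4% in control, and 0% at stage 15. The numbers in the boundary names skip 1 bin here, at 6817501 to 6820000, which was taken as left out of the stage 5 maps. The gene tRNA:Lys-TTT-2-1 lies in that bin, and copies of 7SL RNA and lysine tRNA genes lie just to its right. The sources used here give no reason for left-out bins.

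The pair-rule gene ftz, at 6864324 to 6866244, lay between Scr and Antp in a domain with the same ends in all 3 lists, 65 kb apart. It lay nearer the left edge, the boundary inside Scr, than the right edge inside Antp. Its left end was 16.8 kb and its right end 18.7 kb from that left edge in every list. The domain also took in the right 2.48 kb of Scr and the left 16.2 kb of Antp. It held no other protein-coding gene by midpoint, and 5 lncRNA genes.

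Antp, the homeotic gene of the thorax and the longest member at 103 kb, was cut by boundaries in every list and had the widest range of domain lengths among the members. It occupies 6896253 to 6999228. A boundary at 6911251 to 6913750, 16.2 kb inside its left end, was common to all 3 lists. At stage 15 it was the only boundary inside Antp, and the other 86.7 kb of the gene lay in 1 domain of 87.5 kb that ended 0.772 kb past the gene, at 6998751 to 7001250. In both stage 5 lists there were 2 more boundaries inside the gene. The left one, at 6974376 to 6978125, had the same place in both, and the closest stage 15 boundary was 23.75 kb away. The right one lay at 6988751 to 6991250 after mof RNAi and at 6993751 to 6996250 in control, which is 5 kb apart. The stage 15 boundary past the end of Antp was 10 kb from the mof RNAi one and 5 kb from the control one, so that with a match allowed at 5 kb the rightmost control boundary had a partner in both other lists.

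The domain at the midpoint of Antp was therefore 87.5 kb at stage 15, 63.75 kb after mof RNAi and 63.75 kb in control. From left to right the gene was divided at stage 15 into pieces of 16.2 and 86.7 kb. After mof RNAi the pieces were 16.2, 63.75, 13.75 and 9.23 kb, and in control 16.2, 63.75, 18.75 and 4.23 kb. The right end of Antp lay 0.772 kb from a boundary at stage 15, 9.23 kb after mof RNAi and 4.23 kb in control. Antp was thus a gene at a boundary at stage 15 only. The left of the 2 stage 5 boundaries was 3.75 kb wide in both lists, around a bin taken as left out at 6975001 to 6977500. Between the first and the last boundary of the complex the stage 5 maps lacked 3 bins each, over 307.5 kb after mof RNAi and 312.5 kb in control. The part of these bins in the difference from stage 15 was not tested.

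**Figure D2:**
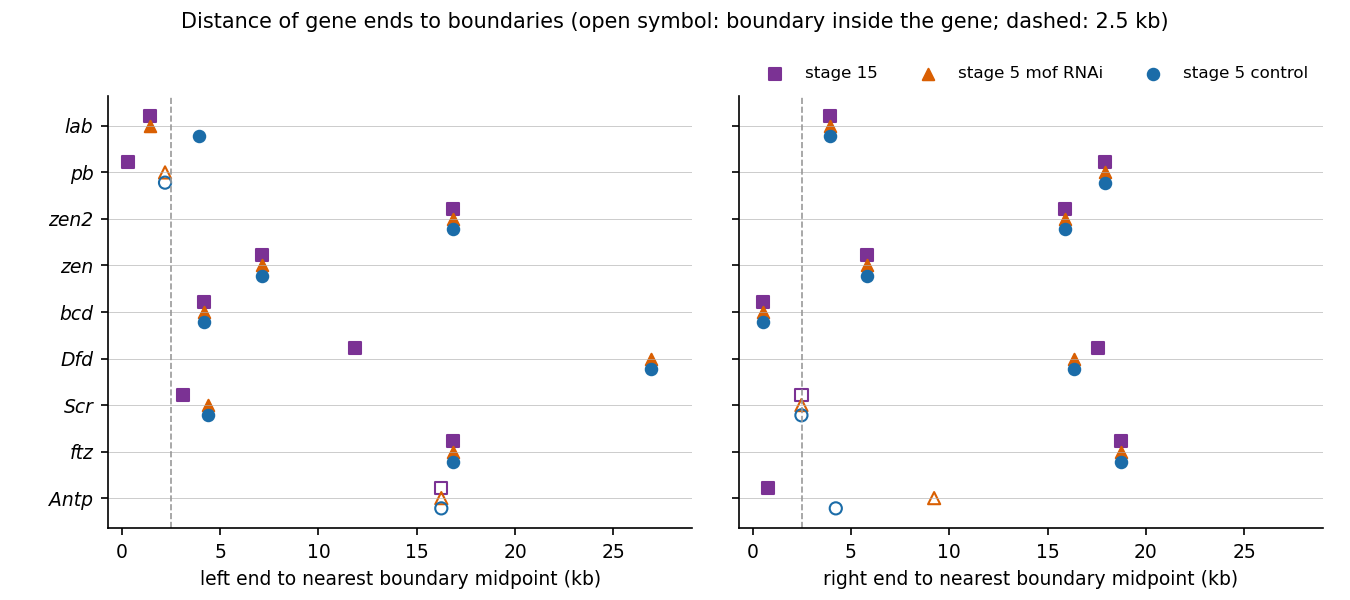
Distance in kb from the left end (left panel) and the right end (right panel) of each gene to the nearest boundary midpoint, for the stage 15, stage 5 mof RNAi and stage 5 control lists. Open symbols mark a boundary inside the gene and the dashed line marks 2.5 kb. Symbols coincide for zen2, zen, bcd and ftz, and part at the left ends of lab, pb, Dfd and Scr and at the right ends of Dfd and Antp.

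Across the 9 genes, 5 had an end within 2.5 kb of a boundary at stage 15 (lab, pb, bcd, Scr and Antp), beside 34.5% of all protein-coding genes. After mof RNAi there were 4 (lab, pb, bcd and Scr), beside 29.5%, and in control 3 (pb, bcd and Scr), beside 31.6%. The members at a boundary in every list were pb, bcd and Scr. Those at none were zen2, zen, Dfd and ftz. Over the 18 ends the median distance was 6.47 kb at stage 15, 8.18 kb after mof RNAi and 6.47 kb in control, and the greatest was 18.7, 26.9 and 26.9 kb. With 9 genes the counts of 5, 4 and 3 differ by 1 gene each, lab by a shift of 1 bin and Antp by the boundary past its right end.

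Boundaries inside a gene were found in Scr and Antp at stage 15, and in pb, Scr and Antp in both stage 5 lists. That is 2 of 9 beside 12.5% of all protein-coding genes at stage 15, 3 of 9 beside 11.5% after mof RNAi and 3 of 9 beside 11.8% in control. These 3 genes are the longest members, at 26.9 kb for Scr, 34.3 kb for pb and 103 kb for Antp. Of the 799 protein-coding genes of 25 kb or longer, a limit chosen after the values were seen, 51.8% held a boundary at stage 15, 53.2% after mof RNAi and 51.3% in control. The genes under 5 kb, zen2, zen, bcd and ftz, held none in any list, and among all genes of that size the share was 7.78% at stage 15, 6.43% after mof RNAi and 6.93% in control.

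Between neighbouring members, 3 of 8 gaps held a boundary in each list: lab to pb, bcd to Dfd and Dfd to Scr. Among all neighbouring protein-coding genes 9.38% did at stage 15, 8.38% after mof RNAi and 8.67% in control. The 3 gaps are 29.2, 32.4 and 20.7 kb long. Other coding genes lie in those from lab to pb and from bcd to Dfd, and in that from zen2 to zen. The genome shares are over neighbouring coding genes, so the 3 of 8 is not a like comparison. Of the member pairs with no coding gene between them, only Dfd and Scr had a boundary in their gap, in each list. For neighbouring genes with a gap of 20 kb or longer, a limit also set after the values were seen, the shares were 45.6% at stage 15, 43.8% after mof RNAi and 45% in control. The gap of 30 kb between ftz and Antp held none in any list. From Scr to ftz and from ftz to Antp the genes were still parted when counted from midpoint to midpoint, because the boundaries lay inside Scr and Antp.

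In each list lab and Scr lay in domains shorter than the median of the list, and the other 7 genes in longer ones. Of these 7, pb, zen2, zen and bcd shared a single domain. The medians over the genome were 35 kb at stage 15, 40 kb after mof RNAi and 38.6 kb in control. They are medians over domains and not over genes, and a longer domain can hold more genes. The share of all genes in domains above the median was not computed, so the count of 7 has no background to be read against. Percentiles give the place of a domain among all domain lengths of its own list. The domain of ftz stood at percentile 79.8 at stage 15, 74.9 after mof RNAi and 77.0 in control. That of Antp stood at 88.7, 73.9 and 75.9 in the same order, and that of lab at 24.1, 18.6 and 24.5. The members thus ranged from short to long domains within each list.

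**Figure D3:**
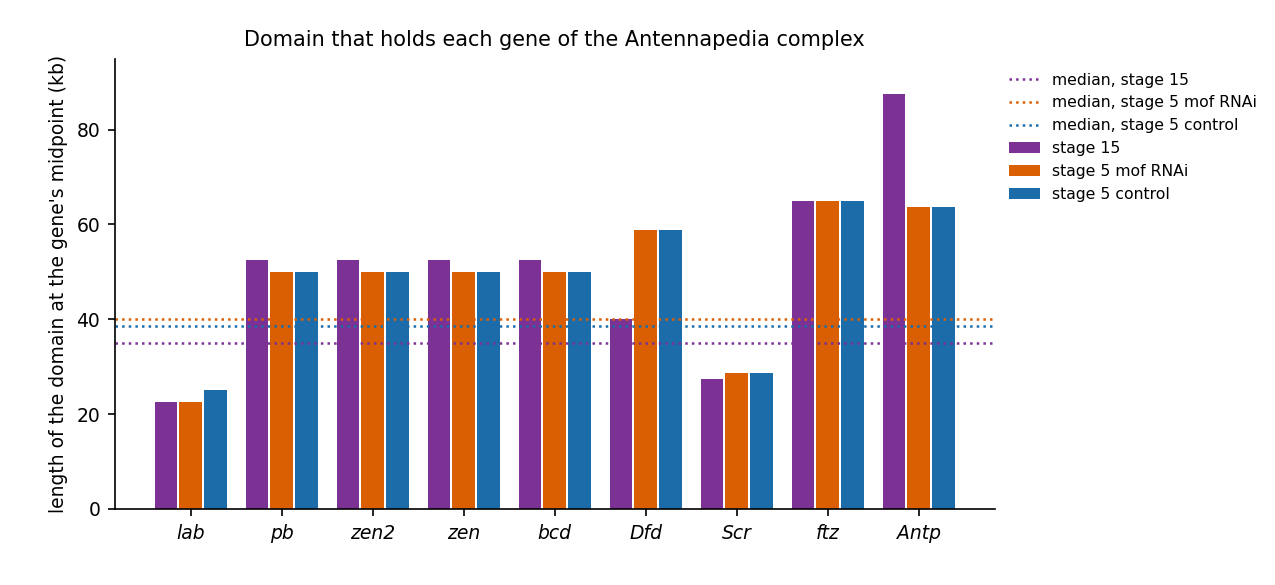
Length in kb of the domain that holds the midpoint of each gene, as bars for the stage 15, stage 5 mof RNAi and stage 5 control lists, with the median domain of each list as a dotted line. The genes pb, zen2, zen and bcd share 1 domain. Dfd has the shorter domain and Antp the longer at stage 15, against nearly equal bars for the other genes.

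After maternal mof RNAi and in control the map of the complex was nearly the same. Of the 8 boundaries after mof RNAi 7 had a partner in control, each with the same midpoint, and 7 of the 8 in control had a partner after mof RNAi. Over the genome 81.6% of mof RNAi boundaries had a partner in control and 78.7% of those in control had a match in the mof RNAi list. The boundary without a partner was the rightmost inside Antp, 5 kb apart in the 2 lists. Left of the complex, the mof RNAi list had a boundary at 6643751 to 6646250, beside Ass, 12.5 kb from the nearest in control, and stage 15 had one 2.5 kb from it. The domain to the left of these boundaries measured 95 kb at stage 15 and 185 kb after mof RNAi, and the domain that bordered the domain of lab measured 197.5 kb in control. Each of these stage 5 domains lacked 3 bins and the stage 15 domain 0. The part of these bins in the difference was not tested.

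Stage 15 differed from both stage 5 lists inside the complex and on either side of it. Of its 7 boundaries 6 had a partner in control and the same 6 after mof RNAi, beside 57.4% and 53.8% of all stage 15 boundaries. Of the 8 control boundaries 6 had a stage 15 partner, beside 61.7% of all control boundaries, and of the 8 after mof RNAi 6 had one, beside 59.9% of all mof RNAi boundaries. Inside the complex the differences were the added boundary left of Dfd and the pair of boundaries inside the right part of Antp. Left of the complex the stage 15 list had a boundary inside dpr11, at 6551251 to 6553750, 92.5 kb from the nearest in either stage 5 list. In both stage 5 lists this place fell within a domain that lacked 3 bins, whose part was not tested. To the right of Antp the stage 15 list had a domain of 87.5 kb from the end of Antp to the alpha-tubulin gene alphaTub84B. Both stage 5 lists cut this stretch at 7036251 to 7038750, beside lncRNA:CR44933, and at 7073751 to 7076250, at CG1943.

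Each boundary carries the authors' own score, on a scale that is not stated, and scores were ranked only within their list. Low percentiles stand for the most negative scores. At stage 15 all 7 boundaries of the complex ranked in the less negative 50% of their list, at percentiles of 55.5 to 95.4. In each stage 5 list 3 of 8 ranked in the more negative 50%. The boundary beside bcd stood at percentile 9.72 after mof RNAi and 13.1 in control, that between Dfd and Scr at 4.12 and 6.37, and that in the left part of Antp at 10.3 and 13.4. The same positions stood at percentiles 74.7, 77.8 and 55.5 of the stage 15 list. The boundary inside Scr stood at percentile 95.4 at stage 15, 52.0 after mof RNAi and 54.5 in control. The boundary left of Dfd that only the stage 15 list had stood at percentile 80.8. The left of the 2 stage 5 boundaries in the right part of Antp stood at 70.5 after mof RNAi and 73.4 in control. Ranks in lists of different length do not show a change, and what a more negative score means is not stated.

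The borders of the complex differed from each other. The boundary to the left of lab stood at percentile 22.2 at stage 15, 13.1 after mof RNAi and 12.5 in control. The boundary just past the right end of Antp at stage 15 had a positive score and stood at percentile 98.3 of its list. The rightmost boundary inside Antp, at percentile 87.2 after mof RNAi and 88.3 in control, was the only one of the complex with a positive score in the stage 5 lists. At stage 15 the boundaries at pb and inside Scr had positive scores. Positive scores made up 13% of the stage 15 list, 23.4% of the mof RNAi list and 23% of the control list.

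**Figure D4:**
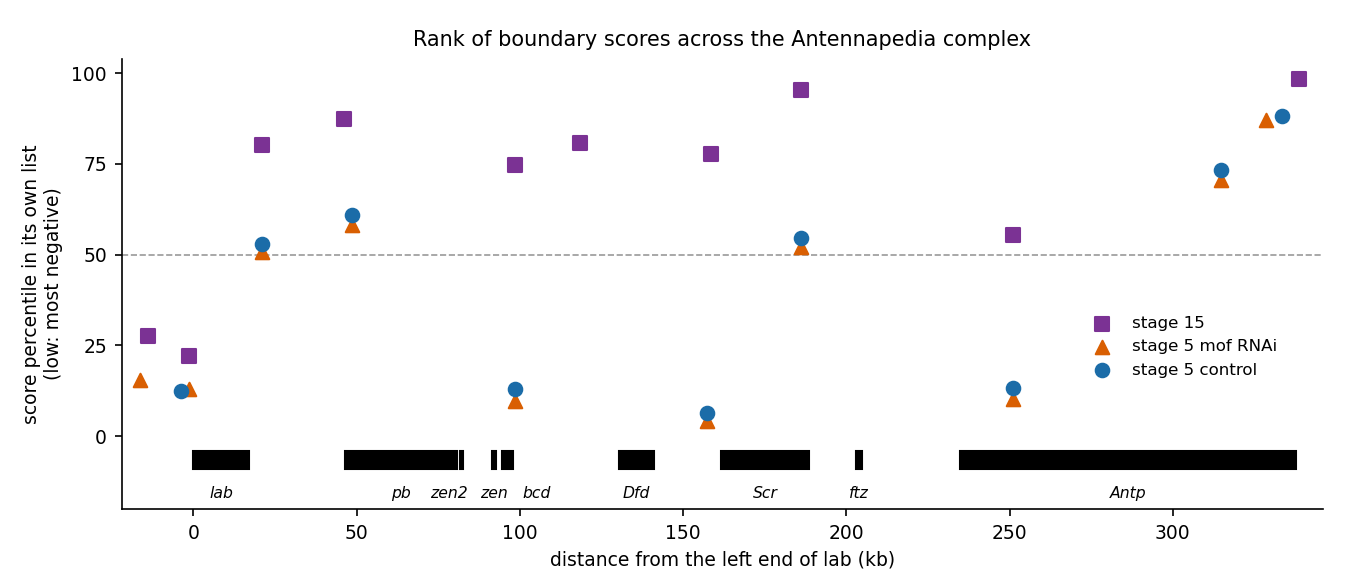
Percentile of each boundary's score within its own list (y axis, low for the most negative) against distance from the left end of lab in kb, with the 9 genes as black boxes, for the stage 15, stage 5 mof RNAi and stage 5 control lists. The stage 15 boundaries of the complex sit above the dashed 50% line, and the stage 5 boundaries at bcd, between Dfd and Scr, and in the left part of Antp sit at percentiles of 4.12 to 13.4 of their lists.

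The bithorax complex, also on 3R, holds the other Hox genes, Ubx, abd-A and Abd-B, which specify the posterior thorax and the abdomen, over 315.6 kb. That complex held 9 boundaries at stage 15, 11 after mof RNAi and 9 in control. Of the 9 at stage 15, 5 had a partner in control, where the Antennapedia complex had 6 of 7. Over the genome this held for 57.4% of stage 15 boundaries. Of the 11 after mof RNAi, 9 had a partner in control, where the Antennapedia complex had 7 of 8 and the genome 81.6%. These differences were not tested. Ubx and Abd-B had an end within 2.5 kb of a boundary and a boundary inside in each list, and abd-A had neither. Of all protein-coding genes 34.5% were at a boundary at stage 15, 29.5% after mof RNAi and 31.6% in control. A boundary inside was held by 12.5%, 11.5% and 11.8% in the same order. Ubx is 77.8 kb and Abd-B 45.0 kb long, and of genes of 25 kb or longer 51.8%, 53.2% and 51.3% held one. The domain of abd-A was 70 kb at stage 15, 35 kb after mof RNAi and 35 kb in control.

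Of the 5 cofactors and partners of Hox proteins, exd, tsh and disco were at a boundary in each list, beside 34.5% of all protein-coding genes at stage 15, 29.5% after mof RNAi and 31.6% in control. The gene exd, for the cofactor that binds DNA with Hox proteins, held a boundary 0.032 kb from its left end in all 3. Its partner hth held 2 in each list and was at a boundary in none. Of the 5 genes, exd and hth held a boundary inside at stage 15, and exd, hth and disco-r in both stage 5 lists. The share of all protein-coding genes was 12.5% at stage 15, 11.5% after mof RNAi and 11.8% in control. Of them, hth is 132 kb and disco-r 30.9 kb long, and exd 4.04 kb. Of 15 Polycomb and Trithorax genes, which maintain Hox expression, 7 were at a boundary at stage 15, 7 after mof RNAi and 8 in control, beside the same 34.5%, 29.5% and 31.6%. Of these 15 genes 4 held a boundary at stage 15, 5 after mof RNAi and 6 in control, beside 12.5%, 11.5% and 11.8%. Among the holders osa is 30.5 kb long, Psc 15.0, brm 12.8, ash1 7.98, ph-d 7.56 and mor 4.78 kb. No share was computed for genes between 5 and 25 kb, so these counts are not set against genes of like length. A further gene of this list, pho, lies outside the 5 arms. Of the 15 only Pc, ash1 and brm had a call at a boundary that differed between lists, and they were named for that. Pc was at a boundary at stage 15 only, ash1 in both stage 5 lists only and brm in control only. The domain that held Pc lacked 3 bins in both stage 5 lists and 0 at stage 15, and their part in this difference was not tested.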

How the data were processed

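Boundary lists were read as deposited, in dm6 per the submitters' processing notes. Boundaries were placed on bins of 2.5 kb, per the names of the stage 5 lists. The name of the stage 15 list gives no bin size, and 0% of its boundaries were wider than 2.5 kb. Each line gives start, end, a name with a number and a score, which is the authors' deposited score with no stated scale. For the aligner, the boundary caller and its thresholds: not given in the sources used here. The lists were tied to groups by the stage and condition in their names and in the sample descriptions, and which stage 15 libraries were pooled is not stated. Another stage 5 list was identical to the control list and was not used. The other 57 of the 70 samples were not analysed here.

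Boundaries were placed at their midpoint, domains run between neighbouring midpoints, and a gene belongs to the domain that holds its own midpoint. Bins missing from the numbers in boundary names were taken as left out by the authors. Genes came from the RefSeq table of release 6. The gene lists and the members were chosen with earlier results of these data known. Named are the 9 members, the boundaries of the complex and those beside it, other genes in or at them, and genes of 3 related lists. Boundaries farther out on either side, and the genes at them, were chosen after their values were seen. So were the Polycomb and Trithorax genes given by name, where only counts were planned. Planned homeodomain and promoter sequences were not used here. Counting was tested on simulated lists with known answers, in Python 3.11.15 with pandas 2.3.3. Alternatives were windows of 1 and 5 kb around gene ends, distances to the edge of a boundary, a match allowed at 0, 5 or 10 kb, matching each boundary once, genes of every biotype, any overlap with a boundary's interval, lists without wide boundaries and the 50% with the most negative scores.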

Additional observations from a re-analysis of the deposited data

How the results depend on the processing

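Of 69 recomputed counts 46 stayed within 1.5 times the reported one and 23 did not. A window of 1 kb around gene ends left 3 members at a boundary at stage 15, 1 after mof RNAi and 1 in control, and a window of 5 kb gave 5 in control. Counting any overlap of a boundary's interval gave 4 members with a boundary inside at stage 15. With the 50% of each list that had the most negative scores, the complex held 0 boundaries at stage 15, 3 after mof RNAi and 3 in control. The members at a boundary were then 1, 2 and 1 in this order, and those with a boundary inside 0, 1 and 1. The domain kept both ends for 0, 1 and 1 of the 9 genes. Matches between stage 15 and either stage 5 list fell to 0 in both directions, and those between mof RNAi and control to 3 in both. Fewer boundaries enter that setting by its construction. The other settings kept these counts within 1.5 times. At that limit, matches of stage 15 with either stage 5 list fell from 6 to 4 when allowed at 0 kb. Without wide boundaries the domain kept both ends for 6 of the 9 genes in each stage 5 list. Domain lengths were not among the 69 counts. With the 50% setting 25 of these lengths changed and 2 did not, and each member then lay in a domain of 427.5 kb at stage 15. Without boundaries wider than 2.5 kb, Dfd and Scr shared a domain of 87.5 kb in both stage 5 lists, and the domain of Antp was 77.5 kb after mof RNAi and 82.5 kb in control. No spread between libraries can be given, and positions are resolved to 2.5 kb.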
